A study of Homo sapiens with 9 samples.

Results

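The cytosolic ribosomal proteins were followed here as 85 protein-coding genes of the 62703 genes in the deposited table. They were chosen by name alone: RPSA, the stalk proteins RPLP0, RPLP1 and RPLP2, and the symbols RPL or RPS followed by a number. Of these, 77 are core proteins of the human ribosome and 8 are paralogs, which are RPL3L, RPL7L1, RPL10L, RPL22L1, RPL26L1, RPL36AL, RPL39L and RPS27L. By name, 53 belong to the large subunit and 32 to the small subunit. No expression value entered this choice. A filter on low counts kept 83 of them for testing and left out RPL3L and RPL10L.

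The cells were HK-2, a human proximal tubule line transformed with human papillomavirus 16, labelled as from renal cortex. MYDGF is a secreted growth factor. The study compared the toxin with no treatment, and MYDGF with the toxin alone. In the first group of 3 libraries (numbered 1, 3 and 4 in the labels, genotype given as MYDGF overexpression), cells received a MYDGF adenovirus on vector GV314 and aristolochic acid, and are called MYDGF cells here. In the second group (numbered 1, 4 and 6, genotype WT), cells received aristolochic acid alone, a plant toxin that forms DNA adducts in tubule cells. In the third group (numbered 1, 2 and 3, genotype WT), cells were left untreated. The protocol gives 12 h without serum and then 5 µg/ml of the toxin for 48 h, with medium of 5% serum. No control vector is named for the other groups and no vehicle for untreated cells, so MYDGF and the virus that carries it cannot be told apart. The treatment text of 4 libraries names HK-3 or HK-4, and separate cultures are not stated, so the spread behind each p-value may be technical only.

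A ribosome holds a single copy of most of these proteins, so cells make them in near-equal amounts. Their mRNAs begin with a C followed by a run of C and T bases, the terminal oligopyrimidine (TOP) tract, through which mTORC1 and LARP1 set how actively they are translated. Proteins that are not built into a subunit are normally destroyed. When ribosome assembly in the nucleolus is disturbed, RPL5 and RPL11 bind MDM2 together with 5S rRNA and p53 accumulates. In kidney tubule cells, as elsewhere, these mRNAs are among the most abundant.

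Libraries held 10876572 to 14254786 counts. MYDGF itself had 663, 510.2 and 599 CPM (counts per 1e+06 of the TMM-adjusted library size) in MYDGF cells, 105, 74.2 and 90.4 CPM in aristolochic acid cells, and 125, 131 and 123 CPM in untreated cells. All 6 epithelial markers were detected in every group, with a summed level of 2094 to 2157 CPM in MYDGF cells, 2344 to 2349 CPM in aristolochic acid cells and 1665 to 1694 CPM in untreated cells. The 9 proximal tubule markers summed to 25.2 to 26.8, 29.6 to 39.3 and 17.1 to 19.6 CPM in the same groups, and the transporter SLC34A1, the receptor LRP2 and the factor HNF4A stayed at or below 0.309 CPM everywhere, so the labelled cell type is poorly marked. Sums over 6 endothelial markers were at most 13.8 CPM and over 6 leukocyte markers at most 21.5 CPM, both in aristolochic acid cells. The part of these shifts in the results below was not tested.

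The first bases of the mRNAs are shown because they differ between some paralogs and the core genes they resemble. RefSeq promoters (GRCh38.p14) were found for 68 of the 85 genes. Each line gives 15 bases before the annotated start and 15 from it on, 5′ to 3′ on the strand of the gene. Capitals mark the longest run of a C followed only by C or T that begins within 10 bases of that start, where it has at least 5 bases.
RPL22L1 (chr3:170870181-170870210, minus strand): cgcggccgtagCTTCCTCTCTgctctcgcg
RPL22 (chr1:6199581-6199610, minus strand): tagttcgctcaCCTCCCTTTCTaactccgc
RPL26L1 (chr5:172958714-172958743, plus strand): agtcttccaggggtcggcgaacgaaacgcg
RPL26 (chr17:8383179-8383208, minus strand): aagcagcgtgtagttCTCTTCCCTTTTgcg
RPS27L (chr15:63157463-63157492, minus strand): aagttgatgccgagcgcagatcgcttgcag
RPS27 (chr1:153990747-153990776, plus strand): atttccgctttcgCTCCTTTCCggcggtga
RPL36AL (chr14:49620612-49620641, minus strand): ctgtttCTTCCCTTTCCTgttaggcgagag
RPL36A (chrX:101390996-101391025, plus strand): tttgcctcgcggtttCTTTCTTTCCgcgcc
The first member of each pair is the paralog. RPL22L1 has a run of 6 such bases from its annotated start, against 7 in RPL22. In RPL26L1 and RPS27L no run of 5 was found, while RPL26 has 12 bases from its start and RPS27 has 7. RPL36AL holds a run of 12 bases that begins 9 bases before its start, and RPL36A one of 10 bases that begins at its start. An exact start depends on the annotation, and a run says nothing here about use of the tract. A second set shows some of the core genes named below.
RPL14 (chr3:40457324-40457353, plus strand): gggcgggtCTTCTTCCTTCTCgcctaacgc
RPL21 (chr13:27251543-27251572, plus strand): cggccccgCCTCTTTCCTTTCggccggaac
RPL12 (chr9:127451392-127451421, minus strand): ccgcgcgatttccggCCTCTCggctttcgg
RPL28 (chr19:55385917-55385946, plus strand): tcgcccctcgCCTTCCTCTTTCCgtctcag
RPL36 (chr19:5690280-5690309, plus strand): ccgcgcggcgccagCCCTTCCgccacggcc
RPL34 (chr4:108620561-108620590, plus strand): aaaggCTTTTTTCTTCCTCTTCCggggacg
RPLP2 (chr11:809952-809981, plus strand): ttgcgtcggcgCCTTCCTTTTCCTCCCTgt
RPL15 (chr3:23916530-23916559, plus strand): ggcgctggggcctgctggaggagcttcacg
RPL14, RPL21, RPL12, RPL28, RPL36, RPL34 and RPLP2 begin with a C/T run at the annotated start, whichever way their mRNA level went, and RPL15 does not. RPL13, RPL6, RPL19, RPL9, RPL11, RPL3 and RPS29, named below but not shown, have no such run at the start either. By call in aristolochic acid against untreated cells, 4 of 9 members that rose had the run, 9 of 17 that fell and 30 of 41 not called. This difference was not tested. Over the genes with a promoter entry, a C at the start with C or T at the next 4 bases was found in 42 of 62 core genes (67.7%), in 1 of 6 paralogs (RPL22L1), and in 4.35% of 15775 other protein-coding genes. Of the other words searched on both strands of the 300-base promoters, CCGGAAG, the core of an ETS factor site, was found in 33.9% of core genes and in 14.2% of the other genes. TATAAA was found in 8.07% and 9.62%, GGGCGG in 54.8% and 58.5%, and CACGTG in 4.84% and 8.89%.

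Core ribosomal proteins took a share of all counts that differed little between the 3 groups. The share was 2.61, 2.71 and 2.65% in MYDGF cells, 2.58, 2.31 and 2.31% in aristolochic acid cells, and 2.44, 2.46 and 2.47% in untreated cells. All MYDGF libraries lay above all libraries of the other groups, and the aristolochic acid libraries lay on both sides of the untreated ones. On the log2 scale the share of aristolochic acid cells was 0.036 below that of untreated cells (two-sided exact permutation test, p = 0.4). That of MYDGF cells was 0.15 above aristolochic acid cells and 0.11 above untreated cells, each with an exact permutation p = 0.1, the smallest that 3 against 3 libraries allow. Without aristolochic acid library 1 the first difference was -0.089, more than its size with all libraries, and without library 4 or 6 it was -0.010 or -0.00988. The share of counts from mitochondrial genes was 4.44 to 4.71% in MYDGF cells, 4.37 to 4.76% in aristolochic acid cells and 6.49 to 6.84% in untreated cells. With those counts left out of the total, the difference between MYDGF and untreated cells was 0.082. In such bulk samples fewer cells of a kind and less RNA per cell cannot be told apart.

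Levels compared between genes are given per length, as the authors' FPKM. RPS12, a protein of the small subunit, was the highest member, with 439.9, 641 and 562 FPKM in MYDGF cells, 496, 440.5 and 423 FPKM in aristolochic acid cells and 478, 508 and 483 FPKM in untreated cells. The next was the paralog RPL36AL, at 452, 472 and 472 FPKM, 359, 408 and 371 FPKM and 469.6, 513 and 517 FPKM in the same order of groups. The lowest detected core gene was RPS9, a protein of the small-subunit body with 4 to 14 counts per library. Its annotated locus overlaps the coding genes LILRB3 and LILRA6, and whether reads were lost in counting was not tested. Its counts are thus no secure measure of its mRNA. RPS9 stood at 0.689, 1.09 and 0.424 CPM in MYDGF cells, 0.891, 0.464 and 0.920 CPM in aristolochic acid cells and 0.396, 0.587 and 0.303 CPM in untreated cells. Counted levels thus spanned a wide range, and the median over all 85 genes was 37.8 FPKM in untreated cells. The gene lengths implied by FPKM and counts ran up to 19969 bases, longer than these mRNAs, so FPKM levels here are per that length. The order and range of the members depend on it too. RPL4 had 181140 counts over all libraries against 43067 for RPS12, but a mean of 147.5 FPKM against 496.8 FPKM.

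**Figure D1:**
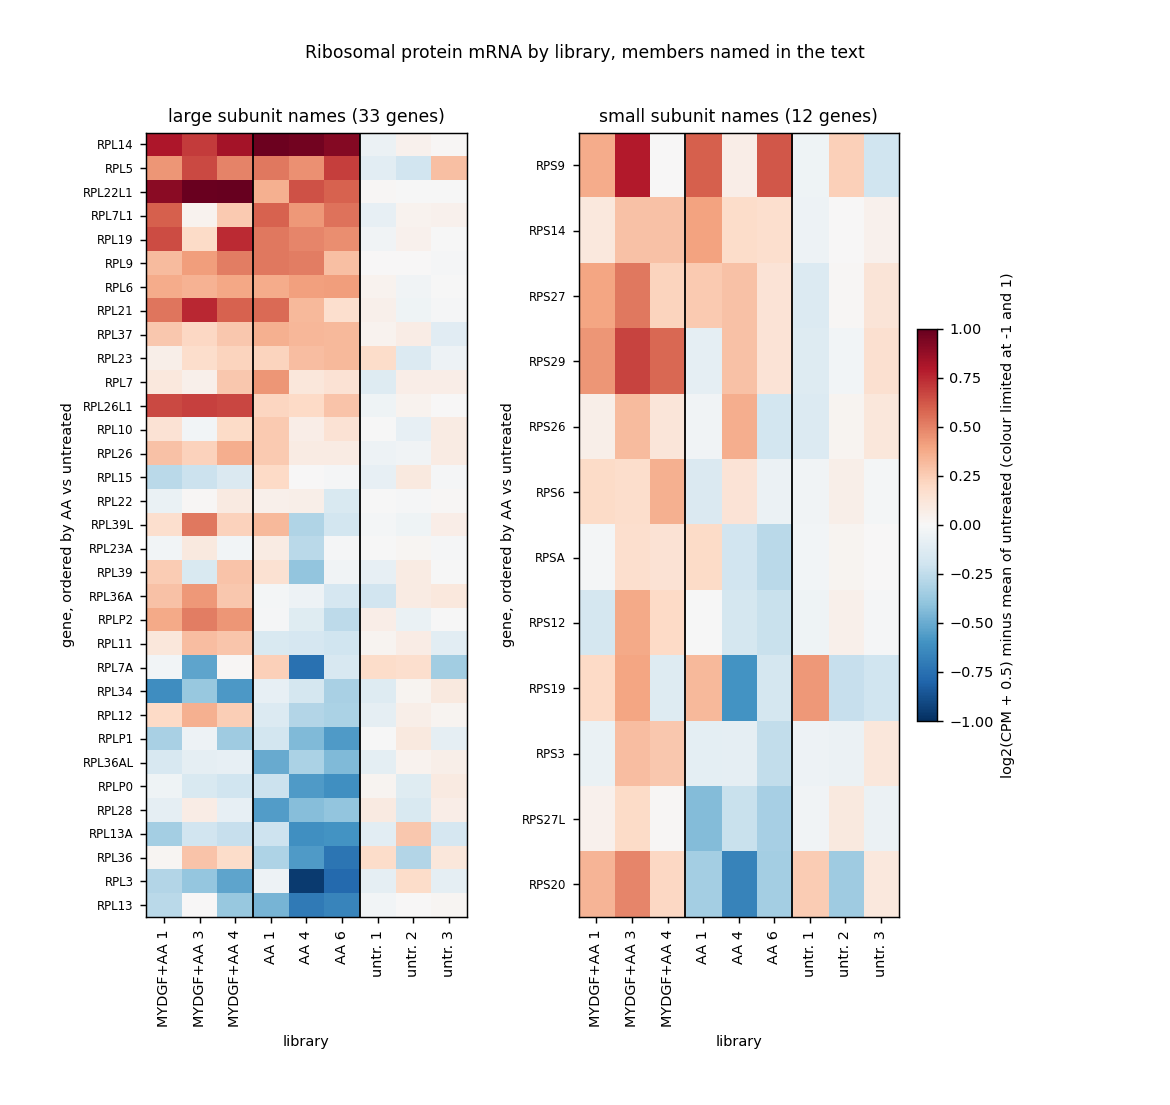
Each row is a gene and each column a library, with MYDGF plus aristolochic acid (MYDGF+AA) left, aristolochic acid (AA) in the middle and untreated (untr.) right. Colour gives log2(CPM + 0.5) minus the mean of the untreated libraries, limited at -1 and 1, for the tested members that are named in the text. RPL14 is red in all 6 treated libraries, and RPL13, RPL36 and RPL28 are blue in the 3 aristolochic acid libraries.

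Aristolochic acid moved the ribosomal protein mRNAs in both directions and by little. In aristolochic acid cells against untreated cells 12 of the 83 genes tested rose and 22 fell at an edgeR quasi-likelihood adjusted p under 0.05 (Benjamini-Hochberg over 18267 genes). Over all genes tested, 29.7% rose and 29.3% fell. The members' shares of 14.5% and 26.5% are thus below the background for a rise and close to it for a fall, and 41.0% of members against 59% of all genes were called at all. The median log2 fold change was -0.073 over the members and -0.012 over all genes. Of the 51 large-subunit genes 11 rose and 14 fell, while of the 32 small-subunit genes only RPS14 rose and 8 fell. The difference between the subunits was not tested. The number that fell was 11 without aristolochic acid library 6 and 14 without untreated library 3.

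RPL14, a large-subunit protein next to RPL6, had the highest log2 fold change of the members tested. It stood at 211, 196 and 215 CPM in MYDGF cells, 238, 235 and 228 CPM in aristolochic acid cells and 115, 124 and 121 CPM in untreated cells. Aristolochic acid libraries lay far above untreated ones with no overlap, and MYDGF libraries lay between the 2 groups. The log2 fold change in aristolochic acid cells was 0.96 ± 0.059 (SE), adjusted p = 5.44e-06. RPL6, its neighbour in the subunit, stood at 649, 641 and 655 CPM in MYDGF cells, 648, 666 and 669.8 CPM in aristolochic acid cells and 516, 490.0 and 501 CPM in untreated cells. All 6 treated libraries exceeded the untreated ones, with a log2 fold change in aristolochic acid cells of 0.40 ± 0.043 (SE), adjusted p = 6.34e-05. RPL5, which binds MDM2 with RPL11 and 5S rRNA, stood at 456, 532 and 474 CPM in MYDGF cells, 483, 461 and 542 CPM in aristolochic acid cells and 312, 294 and 413 CPM in untreated cells. Its 6 treated libraries lay above the highest untreated one, and the log2 fold change in aristolochic acid cells was 0.55 ± 0.13 (SE), adjusted p = 0.00460. RPL19, a large-subunit protein that reaches across to the small subunit, had 587, 571 and 562 CPM in aristolochic acid cells, against 398, 419.6 and 406 CPM in untreated cells (log2 fold change 0.49 ± 0.12 (SE), adjusted p = 0.00594). RPL37 (log2 fold change 0.34), RPL23 (0.28), RPS14 (0.25), RPL9 (0.46) and RPL21 (0.37) also rose, and with them the paralogs RPL22L1, RPL7L1 and RPL26L1. The call of RPL21 was lost without any 1 of untreated libraries 1, 2 and 3 or aristolochic acid library 1.

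Among the members that fell, RPL13, a large-subunit protein, had 367, 443 and 339.8 CPM in MYDGF cells, 321, 272 and 280.1 CPM in aristolochic acid cells and 435, 445 and 449 CPM in untreated cells. Its aristolochic acid libraries did not overlap either of the other groups. It fell by 0.61 on the log2 scale in aristolochic acid cells against untreated cells (adjusted p = 6.64e-04). RPL28, a large-subunit protein that budding yeast lacks, had 125, 138 and 140.2 CPM in aristolochic acid cells, against 196, 166 and 193 CPM in untreated cells (log2 fold change -0.46 ± 0.084 (SE), adjusted p = 0.00114). RPL36 had 147, 123 and 109.9 CPM in aristolochic acid cells, against 207, 149 and 197 CPM in untreated cells (log2 fold change -0.54 ± 0.14 (SE), adjusted p = 0.00908). In both genes the highest aristolochic acid library was below the lowest untreated one.

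Of the 3 proteins of the stalk that recruits elongation factors, 2 fell. RPLP0, its base, had 553, 435 and 419.5 CPM in aristolochic acid cells, against 654, 592 and 685 CPM in untreated cells, with no overlap (log2 fold change -0.46 ± 0.11 (SE), adjusted p = 0.00443). RPLP1 had 573, 479.7 and 439.6 CPM in aristolochic acid cells, against 647, 696 and 609 CPM in untreated cells, also with no overlap (log2 fold change -0.39 ± 0.11 (SE), adjusted p = 0.0142), and its call was lost without aristolochic acid library 6. RPLP2, the partner of RPLP1 in the stalk, had 249.6, 231 and 209.7 CPM in aristolochic acid cells, against 264, 239.9 and 251 CPM in untreated cells, where the groups overlapped (log2 fold change -0.13 ± 0.074 (SE), adjusted p = 0.162). RPL13A, also known from the silencing of interferon-induced mRNAs, had a log2 fold change of -0.47 ± 0.14 (SE), adjusted p = 0.0143, and its call was lost without aristolochic acid library 4 or 6. RPS20 had a log2 fold change of -0.46 ± 0.15 (SE), adjusted p = 0.0270. Its groups overlapped, since aristolochic acid cells had 268, 213 and 268 CPM and untreated cells 403, 264 and 365 CPM, and the call was lost without untreated library 1 or 3 or aristolochic acid library 4. RPL3, which lies beside the peptidyl transferase centre, was the least secure call. Aristolochic acid library 1 stood at 869 CPM within the untreated range of 842 to 1020.0 CPM, and the log2 fold change of -0.54 ± 0.21 (SE), adjusted p = 0.0445 lost its call in 14 of 18 other settings, among them the omission of any single library other than aristolochic acid library 1.

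**Figure D2:**
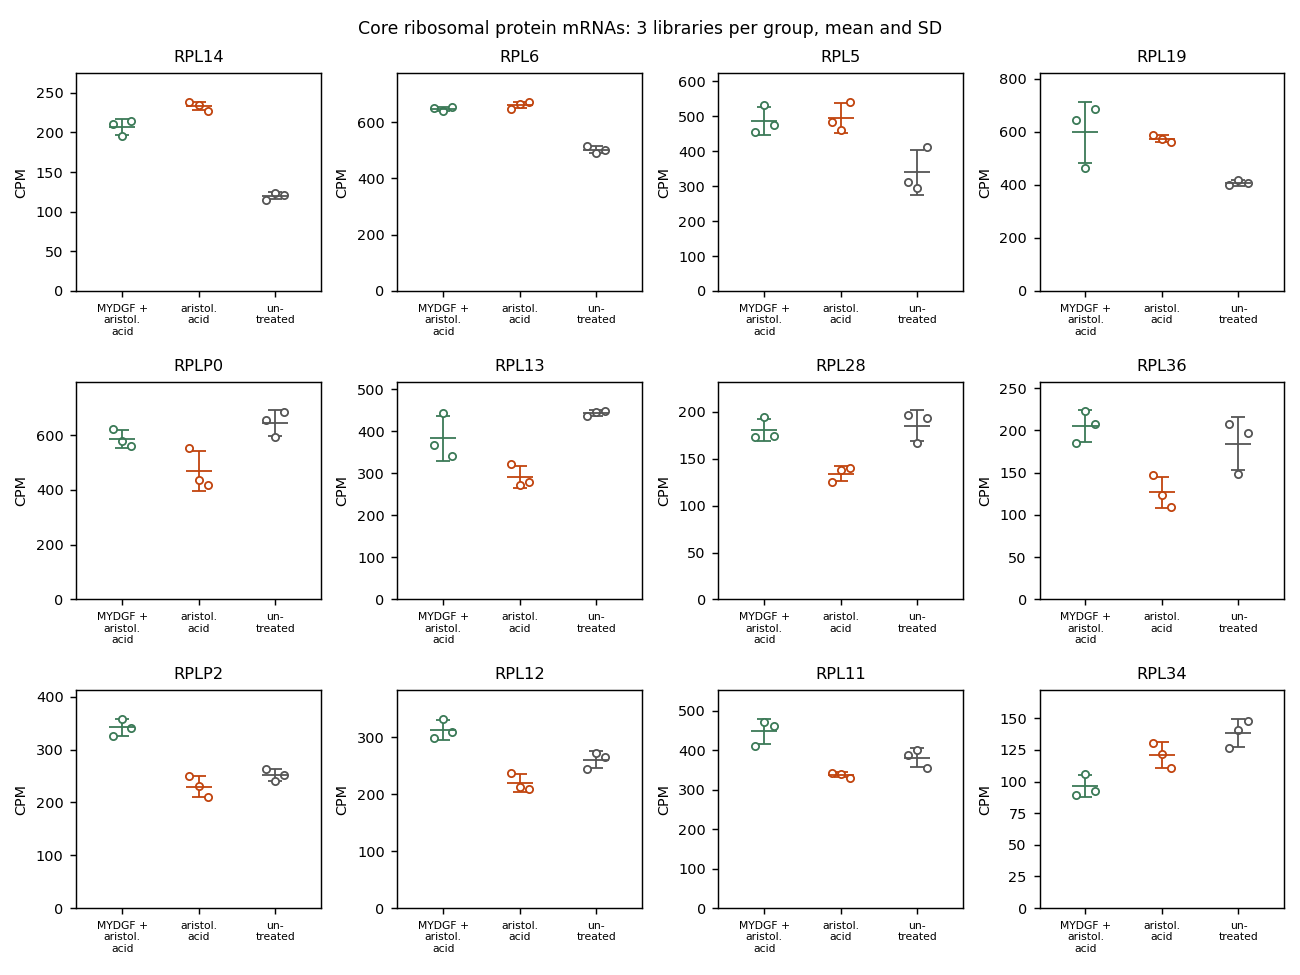
CPM of 12 core genes: points are the 3 libraries of a group, with MYDGF plus aristolochic acid left, aristolochic acid in the middle and untreated right, and bars give the mean and SD. RPL14, RPL6, RPL5 and RPL19 are higher in aristolochic acid than in untreated cells, RPLP0, RPL13, RPL28 and RPL36 are lower, and RPLP2, RPL12 and RPL11 are highest in MYDGF cells, in which RPL34 is lowest.

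With MYDGF the shifts ran mostly upward. In MYDGF cells against aristolochic acid cells 21 of 83 members rose (25.3%, background 14.7%) and 2 fell (2.41%, background 14.7%). The median log2 fold change was 0.15 over the members and 0.010 over all genes tested. By subunit, 16 of 51 large-subunit genes rose and 2 fell, and 5 of 32 small-subunit genes rose and none of them fell. The sizes were small: the 21 log2 fold changes ran from 0.26 (RPS6) to 0.79 (RPS20). In each of the 21 the MYDGF and aristolochic acid libraries did not overlap. These genes were picked by their call on the same libraries, so the lack of overlap adds no separate support. This comparison shares the aristolochic acid libraries with the one above, so a low or high value there enters both. Leaving out aristolochic acid library 1 gave 29 higher members and leaving out library 6 gave 14. The number that fell was 1 without aristolochic acid library 4 or without MYDGF library 1 or 3.

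RPS20, in the head of the small subunit, had 428, 475 and 392 CPM in MYDGF cells, against 268, 213 and 268 CPM in aristolochic acid cells. No MYDGF library overlapped an aristolochic acid one (log2 fold change 0.79 ± 0.15 (SE), adjusted p = 0.00621). RPL36 had 185, 223 and 208 CPM in MYDGF cells, against 147, 123 and 109.9 CPM in aristolochic acid cells (log2 fold change 0.69 ± 0.14 (SE), adjusted p = 0.00762). RPLP2 of the stalk had 326, 359 and 342 CPM in MYDGF cells, against 249.6, 231 and 209.7 CPM in aristolochic acid cells, with every MYDGF library also above the untreated maximum of 264 CPM (log2 fold change 0.57 ± 0.074 (SE), adjusted p = 0.00140). RPL12, which forms the base of the stalk with RPLP0, stood at 299, 333 and 309 CPM in MYDGF cells, 238, 213 and 209 CPM in aristolochic acid cells and 244, 272 and 266 CPM in untreated cells. The groups did not overlap, with MYDGF cells highest and aristolochic acid cells lowest (log2 fold change 0.51 ± 0.072 (SE), adjusted p = 0.00184). RPLP0 had 624, 579 and 559 CPM in MYDGF cells, against 553, 435.0 and 419.5 CPM in aristolochic acid cells. Its highest aristolochic acid library lay just under its lowest MYDGF library, and the log2 fold change of 0.32 ± 0.11 (SE), adjusted p = 0.0447 lost its call in 13 of 18 other settings, among them the omission of untreated library 1 or 3, aristolochic acid library 4 or 6, or any 1 MYDGF library. RPL11, the partner of RPL5, had 411, 471 and 461 CPM in MYDGF cells, 343, 339 and 331 CPM in aristolochic acid cells and 388, 400.4 and 354 CPM in untreated cells. It was higher in every MYDGF library than in any other library (log2 fold change 0.41 ± 0.068 (SE), adjusted p = 0.00336), whereas RPL5 had a log2 fold change of -0.024 ± 0.13 (SE), adjusted p = 0.903 in the same comparison.

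RPS29, a small-subunit protein, had 368, 432 and 403 CPM in MYDGF cells, against 254, 332 and 297 CPM in aristolochic acid cells (log2 fold change 0.45 ± 0.11 (SE), adjusted p = 0.0158). RPL28 had 174, 194 and 174 CPM in MYDGF cells, against 125, 138 and 140.2 CPM in aristolochic acid cells (log2 fold change 0.43 ± 0.084 (SE), adjusted p = 0.00621). Neither gene showed overlap between MYDGF and aristolochic acid libraries. RPS6, the substrate of the S6 kinases below mTORC1, had 644, 635 and 721 CPM in MYDGF cells, against 509, 617 and 539.8 CPM in aristolochic acid cells (log2 fold change 0.26 ± 0.08 (SE), adjusted p = 0.0347). RPS3, at the mRNA entry of the small subunit, had 368, 478 and 466 CPM in MYDGF cells, against 360.0, 362 and 324 CPM in aristolochic acid cells (log2 fold change 0.33 ± 0.10 (SE), adjusted p = 0.0384). Both had calls that depended on the libraries used: RPS6 lost it without aristolochic acid library 1 or 6 or MYDGF library 1 or 4, and RPS3 without untreated library 1 or 2, aristolochic acid library 4 or 6, or MYDGF library 3 or 4. RPL13 (log2 fold change 0.40 ± 0.1 (SE), adjusted p = 0.0168) lost its call without aristolochic acid library 4 or 6.

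Only RPL34 and RPL15 fell with MYDGF. RPL34, a large-subunit protein, had 89.6, 106 and 92.9 CPM in MYDGF cells, 131, 122 and 110.4 CPM in aristolochic acid cells and 126, 141 and 148 CPM in untreated cells. Every MYDGF library was below every other library. The log2 fold change was -0.33 ± 0.095 (SE), adjusted p = 0.0282 against aristolochic acid cells and -0.53 ± 0.095 (SE), adjusted p = 0.00157 against untreated cells. The first call was lost without aristolochic acid library 1 or 4 or MYDGF library 1 or 4. RPL15, also of the large subunit, had 299.6, 312 and 327 CPM in MYDGF cells, 414, 363 and 358 CPM in aristolochic acid cells and 341, 387 and 358 CPM in untreated cells. MYDGF libraries were again the lowest of all, with a log2 fold change of -0.28 ± 0.074 (SE), adjusted p = 0.0217 against aristolochic acid cells, a call that was lost without MYDGF library 1 or 3. It was also lost when the counts of its named pseudogenes, 39.7% of the joint counts, were added (log2 fold change -0.076, adjusted p = 0.468).

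Members that passed no test in either of these comparisons included RPSA, the laminin receptor of the cell surface as well as a small-subunit protein. It had 197, 225 and 221 CPM in MYDGF cells, 229, 175 and 166 CPM in aristolochic acid cells and 196, 203 and 201 CPM in untreated cells, and the groups overlapped. That holds for its own counts. With named pseudogenes added (51.2% of its joint counts), RPSA rose in MYDGF against aristolochic acid cells (log2 fold change 0.25, adjusted p = 0.0454). RPS19, the gene most often mutated in Diamond-Blackfan anaemia, had 582, 669 and 464 CPM in MYDGF cells, 635, 335 and 450.5 CPM in aristolochic acid cells and 685, 432 and 442 CPM in untreated cells. The groups overlapped here too. RPL10, which joins the large subunit last, in the cytoplasm, had a log2 fold change of 0.16 ± 0.079 (SE), adjusted p = 0.115 in aristolochic acid cells against untreated cells and of -0.054 ± 0.079 (SE), adjusted p = 0.647 in MYDGF cells against aristolochic acid cells. The median coefficient of variation over the 83 members was 7.17% in MYDGF cells, 9.13% in aristolochic acid cells and 6.0% in untreated cells.

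In MYDGF cells against untreated cells, 25 of 83 members rose (30.1%, background 26.8%) and 4 fell (4.82%, background 24.3%). The median log2 fold change was 0.15 over the members and 0.022 over all genes. Of the members called, RPL22L1, RPL14 and RPL26L1 had the highest log2 fold changes, of 0.99, 0.79 and 0.68. RPL34 and RPL15 were among the 4 that fell. The number that fell was 2 without untreated library 3, 7 without aristolochic acid library 1 and 8 without MYDGF library 3, and it was 8 with only the 6 libraries of these groups fitted. The call of RPL15 (adjusted p = 0.0385) was lost without untreated library 2 or 3, aristolochic acid library 6 or any 1 MYDGF library, and with pseudogene counts added (log2 fold change -0.044, adjusted p = 0.640).

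Paralogs and the core genes they resemble are given side by side. In aristolochic acid cells against untreated cells 3 of the 6 tested paralogs rose (50%, background 29.7%) and 2 fell (33.3%, background 29.3%). None of the 8 partners rose in that comparison, and RPL3 alone fell (12.5%). In MYDGF cells against aristolochic acid cells 4 of 6 paralogs rose (66.7%, background 14.7%) and none of the tested paralogs fell (background 14.7%). Their median log2 fold change was 0.38. Of the 8 partners RPL36A alone rose in that comparison by its own counts (12.5%). In MYDGF cells against untreated cells the contrast was absent: 2 of 6 paralogs (33.3%) and 3 of 8 partners (37.5%) rose (background 26.8%). No tested paralog or partner fell there (background 24.3%). With so few genes, the difference between paralogs and partners was not tested.

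RPL22L1 (chr3:170864875-170870208), which can take the place of RPL22 in the ribosome, had stepwise levels. It stood at 47.1, 49.96 and 52.0 CPM in MYDGF cells, 32.1, 39.2 and 37.9 CPM in aristolochic acid cells and 25.2, 24.9 and 24.9 CPM in untreated cells. Each group lay wholly above the next. The log2 fold change was 0.54 ± 0.091 (SE), adjusted p = 7.27e-04 in aristolochic acid cells against untreated cells, 0.45 ± 0.089 (SE), adjusted p = 0.00654 in MYDGF cells against aristolochic acid cells and 0.99 ± 0.09 (SE), adjusted p = 3.81e-05 in MYDGF cells against untreated cells. RPL22 (chr1:6185020-6209389), whose start is shown above beside that of its paralog, had 158, 168 and 177 CPM in MYDGF cells, 172, 173 and 149.6 CPM in aristolochic acid cells and 165, 165 and 168 CPM in untreated cells. Its groups overlapped, with a log2 fold change of -0.0098 ± 0.072 (SE), adjusted p = 0.915 in aristolochic acid cells. The ratio of RPL22L1 to RPL22 counts was 0.298, 0.298 and 0.294 in MYDGF cells, 0.187, 0.227 and 0.253 in aristolochic acid cells and 0.153, 0.151 and 0.148 in untreated cells. The 3 groups of ratios did not overlap (exact permutation p = 0.1 for each pair of groups, the smallest possible, and 0.15 to 0.2 adjusted over 6 ratios).

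RPL26L1, which resembles RPL26, followed the same order. It stood at 61.7, 62.8 and 62.1 CPM in MYDGF cells, 45.2, 44.7 and 47.5 CPM in aristolochic acid cells and 37.7, 39.9 and 39.0 CPM in untreated cells, with no overlap between groups (log2 fold change 0.24 ± 0.063 (SE), adjusted p = 0.00917 in aristolochic acid cells against untreated cells and 0.44 ± 0.062 (SE), adjusted p = 0.00185 in MYDGF cells against aristolochic acid cells). RPL26, itself known for binding the mRNA of p53, stood at 419.8, 402 and 441 CPM in MYDGF cells, 410.0, 363 and 363 CPM in aristolochic acid cells and 332, 334 and 363 CPM in untreated cells. By its own counts it did not pass the test in either of these comparisons. It was called higher in MYDGF cells against untreated cells, a call lost in 1 of 18 other settings. With named pseudogenes added (21.1% of its joint counts), RPL26 also rose in MYDGF against aristolochic acid cells (log2 fold change 0.18, adjusted p = 0.0480). The ratio of the pair was 0.147, 0.156 and 0.141 in MYDGF cells, against 0.110, 0.123 and 0.131 in aristolochic acid cells (exact permutation p = 0.1, and 0.2 adjusted over 6 ratios). In untreated cells the ratio was 0.114, 0.119 and 0.107, which overlapped that of aristolochic acid cells (exact permutation p = 0.3, and 0.36 adjusted over 6 ratios).

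RPS27L, a target gene of p53 in human cells, was lower with the toxin alone. It had 45.6, 50.7 and 44.7 CPM in MYDGF cells, 32.6, 37.9 and 35.0 CPM in aristolochic acid cells and 43.1, 47.4 and 42.5 CPM in untreated cells. Aristolochic acid libraries lay below all others (log2 fold change -0.33 ± 0.088 (SE), adjusted p = 0.00943), and MYDGF libraries stood at the untreated level (log2 fold change against aristolochic acid cells 0.42 ± 0.088 (SE), adjusted p = 0.00849). RPS27, its partner, had 102, 112 and 91.0 CPM in MYDGF cells, 93.4, 95.0 and 85.4 CPM in aristolochic acid cells and 70.7, 78.2 and 84.8 CPM in untreated cells. The ratio of RPS27L to RPS27 was 0.446, 0.452 and 0.492 in MYDGF cells, 0.349, 0.399 and 0.411 in aristolochic acid cells and 0.610, 0.606 and 0.501 in untreated cells. The untreated ratios were the highest and the aristolochic acid ratios the lowest, with no overlap (exact permutation p = 0.1 for each pair of groups, and 0.15 to 0.2 adjusted over 6 ratios).

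RPL36AL, whose protein is nearly identical to RPL36A, had 305, 320.3 and 321 CPM in MYDGF cells, 241, 274 and 251 CPM in aristolochic acid cells and 319, 349 and 355 CPM in untreated cells. Aristolochic acid libraries were lowest (log2 fold change -0.42 ± 0.066 (SE), adjusted p = 5.07e-04 against untreated cells, and 0.31 ± 0.066 (SE), adjusted p = 0.00891 for MYDGF against aristolochic acid cells). RPL36A had 19.1, 21.2 and 18.8 CPM in MYDGF cells, 15.3, 14.9 and 13.7 CPM in aristolochic acid cells and 13.6, 16.4 and 16.7 CPM in untreated cells, and rose in MYDGF cells against aristolochic acid cells (log2 fold change 0.43 ± 0.11 (SE), adjusted p = 0.0214), a call lost without aristolochic acid library 6 or MYDGF library 3. The paralog had 15.1 to 17.1 times the counts of RPL36A in MYDGF cells, 15.7 to 18.3 times in aristolochic acid cells and 21.2 to 23.6 times in untreated cells. Named pseudogenes held 92.7% of the joint counts of RPL36A, and RPL36AL has none by name, so these ratios are no secure measure of mRNA levels. RPL7L1, a nucleolar relative of RPL7 that takes part in large-subunit assembly, had 251, 169 and 199 CPM in MYDGF cells, 249, 224 and 242 CPM in aristolochic acid cells and 157, 170.0 and 171 CPM in untreated cells. It rose in aristolochic acid cells against untreated cells (log2 fold change 0.52 ± 0.12 (SE), adjusted p = 0.00545), and MYDGF libraries overlapped both other groups. RPL39L, known from testis and tumours, had 27.3, 35.2 and 28.6 CPM in MYDGF cells, 30.4, 19.6 and 21.3 CPM in aristolochic acid cells and 23.9, 23.5 and 25.4 CPM in untreated cells. Its aristolochic acid libraries overlapped both other groups, and its MYDGF libraries lay above the untreated ones without a call. Their partners RPL7, with 110.0, 106 and 123 CPM in MYDGF cells, 139, 111 and 113 CPM in aristolochic acid cells and 93.3, 107 and 107 CPM in untreated cells, and RPL39, with 17.7, 13.3 and 18.1 CPM in MYDGF cells, 16.5, 11.1 and 14.4 CPM in aristolochic acid cells and 13.9, 15.7 and 14.8 CPM in untreated cells, passed no test. That holds for the genes' own counts. With named pseudogenes added (85.7% of its joint counts), RPL39 fell in aristolochic acid against untreated cells (log2 fold change -0.28, adjusted p = 0.0260). In that sum it rose in MYDGF against aristolochic acid cells (0.37, adjusted p = 0.0178), and RPL7 was called in neither of these 2 comparisons. RPL10L, a testis gene, had 0 counts in all 9 libraries. RPL3L, a heart and skeletal muscle gene, had 1, 0 and 5 counts in MYDGF cells, 9, 52 and 35 counts in aristolochic acid cells and 0, 0 and 0 counts in untreated cells, and was not tested.

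**Figure D3:**
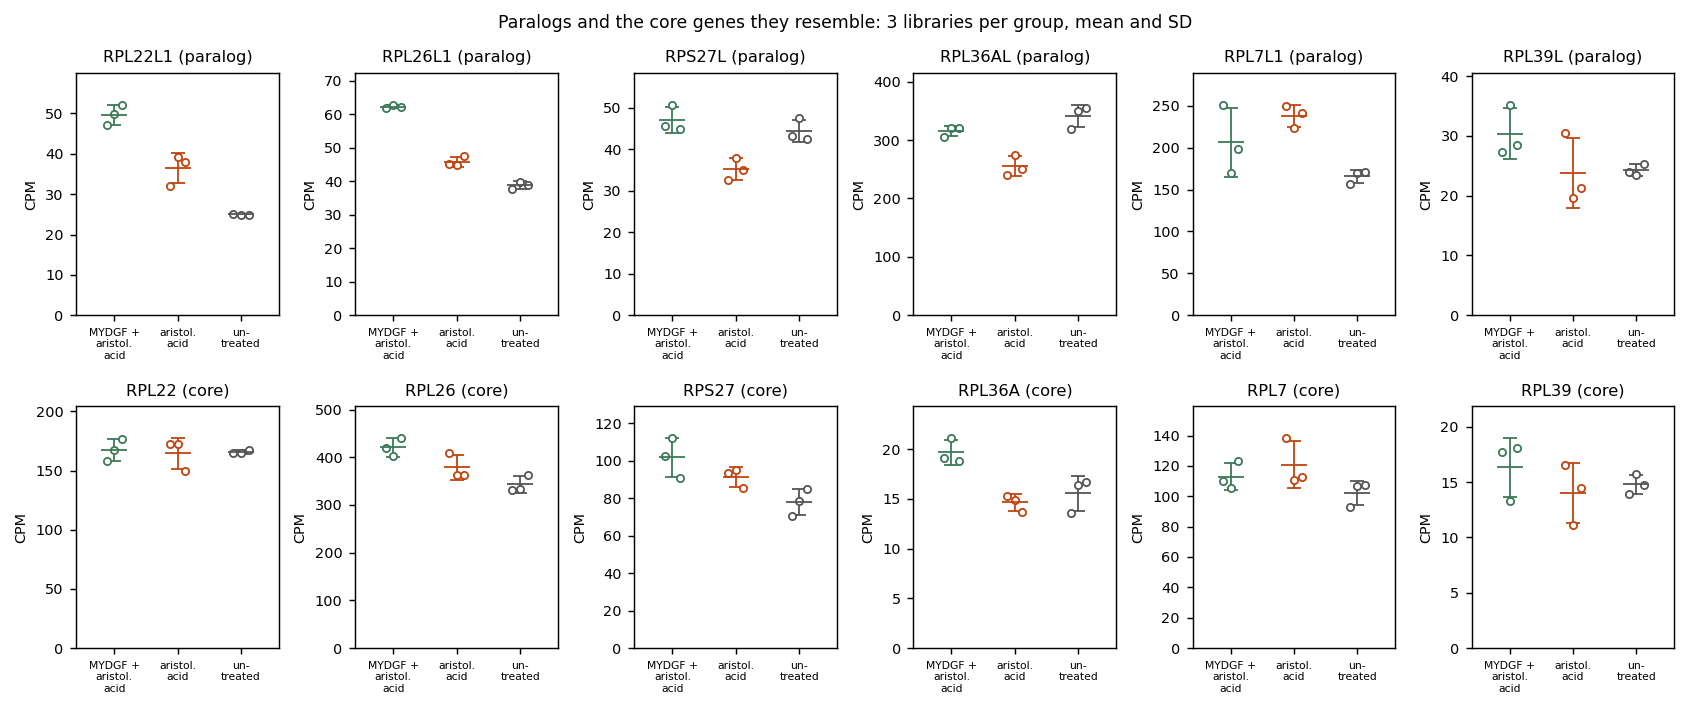
CPM of 6 paralogs (upper row) and of the core genes they resemble (lower row): points are the 3 libraries of a group, with MYDGF plus aristolochic acid left, aristolochic acid in the middle and untreated right, and bars give the mean and SD. RPL22L1 and RPL26L1 step down from left to right. RPL22 stays level, while the mean of RPL26 also steps down, with overlap between neighbouring groups. RPS27L and RPL36AL are lowest with aristolochic acid alone.

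Many of these genes have processed pseudogenes of near-identical sequence, and the sources used here do not give how multiply matching reads were counted. The table lists 1403 pseudogenes named after 78 of the members, 91 of them after RPL23A, and 693 had a count. They held 27.3 to 28.9% of the counts of members and pseudogenes together in a library, close to the same in all groups. For 19 members the pseudogenes held over 50% of the joint counts, with the highest share at RPL21 (96.2%), then RPL7A (93.8%), RPL9 (93.0%) and RPL36A (92.7%). When the counts of a member and its pseudogenes were summed and the whole table refitted, an alternative chosen after the data were seen, 10 members rose and 22 fell in aristolochic acid cells against untreated cells, and 30 rose and 1 fell in MYDGF cells against aristolochic acid cells. Of the 34 and 23 members called without this sum, 30 and 22 were called with it.

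Single genes moved more. RPL21 had a log2 fold change in aristolochic acid cells against untreated cells of -0.033 (adjusted p = 0.728) in the sum, against 0.37 by itself. For RPL9 the sum gave a log2 fold change of 0.30 in MYDGF cells against aristolochic acid cells (adjusted p = 0.0137), against -0.03 by itself, and its rise with aristolochic acid lost the call (log2 fold change 0.14, adjusted p = 0.108). For RPL14 the pseudogenes held 50.01% of the joint counts and the log2 fold change in aristolochic acid cells was 0.53 (adjusted p = 4.27e-05), a smaller rise than the 0.96 of the gene alone. Pseudogenes held 0.572% for RPL36 and 3.83% for RPS20, and the paralogs RPL22L1 and RPL36AL have none by name. RPL22L1 had log2 fold changes of 0.56 in aristolochic acid cells against untreated cells and 0.45 in MYDGF cells against aristolochic acid cells in that refit. In the annotation used for this check (GENCODE 29), 16 members shared over 50% of their 50-base windows with another gene. Of these 16, 2 rose and 2 fell with aristolochic acid, and of the other 67 tested, 10 rose and 20 fell. The background was 29.7% for a rise and 29.3% for a fall, and the difference between the sets was not tested.

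Other shared features were described for the 83 members tested. Introns of 28 members hold snoRNAs, small RNAs that guide rRNA modification, 60 in all. Of these 28 hosts, 4 rose and 10 fell in aristolochic acid cells against untreated cells (median log2 fold change -0.14), and of the 55 others 8 rose and 12 fell (median -0.027). In MYDGF cells against aristolochic acid cells 5 of the 28 hosts and 16 of the 55 others rose. The background over all genes tested was 29.7% higher and 29.3% lower with aristolochic acid, and 14.7% higher with MYDGF. Among members with a promoter entry, 4 of the 43 with a C/T run at the annotated start rose and 9 fell with aristolochic acid (median log2 fold change -0.13), and of the 24 without one 5 rose and 8 fell (median 0.067). These differences were not tested.

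While the ribosomal protein mRNAs themselves split, genes that build ribosomes rose with the toxin. Of 48 ribosome biogenesis factors, 40 rose in aristolochic acid cells against untreated cells, 8 did not pass the test, and none fell. That is 83.3%, against 29.7% of all genes tested. Their median log2 fold change was 0.67, against -0.073 over the ribosomal proteins and -0.012 over all genes. RRP12, an export factor of both subunits in budding yeast, had 155 ± 7.52 CPM in aristolochic acid cells, against 54.9 ± 1.10 CPM in untreated cells (SD, n = 3 each, log2 fold change 1.5 ± 0.06 (SE), adjusted p = 2.60e-06). DDX21, a helicase of rRNA transcription and processing, had 846 ± 80.6 CPM in aristolochic acid cells, against 332 ± 0.368 CPM in untreated cells (log2 fold change 1.35 ± 0.069 (SE), adjusted p = 3.83e-06). NOP16 had 74.2 ± 6.94 CPM in aristolochic acid cells, against 29.7 ± 1.39 CPM in untreated cells and MDN1, the large ATPase of late large-subunit assembly, 150.5 ± 31.1 CPM in aristolochic acid cells, against 61.1 ± 3.27 CPM in untreated cells, with log2 fold changes of 1.32 and 1.30. In MYDGF cells against aristolochic acid cells 6 of the 48 rose (12.5%) and 4 fell (8.33%), with a median of -0.068, and over all genes tested 14.7% rose and 14.7% fell. NOP56 of the box C/D snoRNPs (log2 fold change 0.47 ± 0.11 (SE), adjusted p = 0.0132) and NHP2 of the box H/ACA snoRNPs (0.46 ± 0.07 (SE), adjusted p = 0.00240) rose, and DDX18 (-0.34 ± 0.072 (SE), adjusted p = 0.00840) fell, as did TSR2. NOP56 lost its call without MYDGF library 4.

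Of 11 chaperones and importers of ribosomal proteins 8 rose (72.7%, background 29.7%) and 1 fell (9.09%, background 29.3%) in aristolochic acid cells against untreated cells (median log2 fold change 0.36). GRWD1, a chaperone of RPL3, had 125 ± 2.73 CPM in aristolochic acid cells, against 71.4 ± 4.06 CPM in untreated cells (log2 fold change 0.81 ± 0.063 (SE), adjusted p = 1.27e-05). TSR2, the chaperone of RPS26, had 52.4 ± 1.64 CPM in aristolochic acid cells, against 35.4 ± 1.29 CPM in untreated cells (log2 fold change 0.57 ± 0.069 (SE), adjusted p = 1.19e-04). TSR2 fell with MYDGF, with 40.8 ± 1.49 CPM in MYDGF cells, against 52.4 ± 1.64 CPM in aristolochic acid cells (log2 fold change -0.36 ± 0.068 (SE), adjusted p = 0.00537). Importin TNPO1 rose with the toxin (log2 fold change 0.50 ± 0.072 (SE), adjusted p = 3.20e-04), and so did BCCIP, a chaperone of RPL23 (0.44 ± 0.065 (SE), adjusted p = 3.82e-04). Of the 19 RNA polymerase I genes tested, 12 rose (63.2%, background 29.7%) and 3 fell (15.8%, background 29.3%) with aristolochic acid (median log2 fold change 0.42). Among them TAF1D rose (log2 fold change 1.14 ± 0.12 (SE), adjusted p = 6.68e-05), as did POLR1G (1.30 ± 0.28 (SE), adjusted p = 0.00277), and the subunit POLR2L shared by all 3 polymerases fell (-1.12 ± 0.095 (SE), adjusted p = 1.87e-05). With MYDGF 3 rose and 3 fell, 15.8% each and close to the background of 14.7% each, among them UBTF, the factor that opens rRNA genes (0.66 ± 0.081 (SE), adjusted p = 0.00118), POLR2L (0.66 ± 0.095 (SE), adjusted p = 0.00191) and POLR1F, which fell (-0.59 ± 0.11 (SE), adjusted p = 0.00417).

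FAU and RACK1, ribosome proteins that the naming rule misses, rose in MYDGF cells against aristolochic acid cells. FAU, the precursor of eS30, had 229.9 ± 6.37 CPM in MYDGF cells, against 164 ± 12.2 CPM in aristolochic acid cells (log2 fold change 0.48 ± 0.065 (SE), adjusted p = 0.00150), and RACK1 had 532 ± 25.3 CPM in MYDGF cells, against 436 ± 25.3 CPM in aristolochic acid cells (log2 fold change 0.29 ± 0.058 (SE), adjusted p = 0.00671). Of 18 other TOP mRNAs 4 rose (22.2%, background 29.7%) and 1 fell (5.56%, background 29.3%) in aristolochic acid cells against untreated cells (median log2 fold change -0.0079), and 3 rose (16.7%) and 2 fell (11.1%) in MYDGF cells against aristolochic acid cells (median -0.025, background 14.7% each). The snoRNA host GAS5 had 431 ± 40.6 CPM in aristolochic acid cells, against 168 ± 5.88 CPM in untreated cells (log2 fold change 1.36 ± 0.084 (SE), adjusted p = 5.44e-06), and the nucleolar chaperone NPM1 592 ± 69.2 CPM in aristolochic acid cells, against 407 ± 23.4 CPM in untreated cells (log2 fold change 0.54 ± 0.088 (SE), adjusted p = 6.38e-04). Translation elongation factor EEF1A1 fell with MYDGF, to 1659 ± 19.5 CPM in MYDGF cells, against 2040.0 ± 193 CPM in aristolochic acid cells (log2 fold change -0.30 ± 0.063 (SE), adjusted p = 0.00841), as did EIF3E (-0.32 ± 0.068 (SE), adjusted p = 0.00903). PABPC1 rose (0.26 ± 0.066 (SE), adjusted p = 0.0183), a call lost without aristolochic acid library 4 or MYDGF library 4.

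Among 13 genes of the nucleolar stress pathway, 7 of them members, 5 rose (38.5%, background 29.7%) and 1 fell (7.69%, background 29.3%) with aristolochic acid (median log2 fold change 0.14), and 4 rose with MYDGF (30.8%, background 14.7%) and none of the 13 fell (median 0.15). GNL3 had 176 ± 9.49 CPM in aristolochic acid cells, against 113 ± 6.45 CPM in untreated cells (log2 fold change 0.64 ± 0.068 (SE), adjusted p = 5.76e-05). MDM2, the ubiquitin ligase of p53 that RPL5 and RPL11 bind, had 117 ± 5.17 CPM in MYDGF cells, against 92.4 ± 3.24 CPM in aristolochic acid cells (log2 fold change 0.34 ± 0.062 (SE), adjusted p = 0.00478). Of 23 mTORC1 and translation control genes tested, 7 rose (30.4%, close to the background of 29.7%) and 10 fell (43.5%, background 29.3%) with aristolochic acid (median log2 fold change -0.16). With MYDGF 5 rose (21.7%) and 3 fell (13%), against a background of 14.7% each (median 0.016). SESN3, an inhibitor of mTORC1 signalling, had 5.86 ± 1.41 CPM in aristolochic acid cells, against 23.4 ± 1.09 CPM in untreated cells (log2 fold change -2.0 ± 0.17 (SE), adjusted p = 1.68e-05). DEPTOR, a further inhibitor (-1.43 ± 0.25 (SE), adjusted p = 0.00103), and MLST8, a subunit of the complex (-1.07 ± 0.17 (SE), adjusted p = 5.25e-04), also fell. With MYDGF, MLST8 had 22.1 ± 2.75 CPM in MYDGF cells, against 12.9 ± 2.99 CPM in aristolochic acid cells (log2 fold change 0.78 ± 0.17 (SE), adjusted p = 0.00894). EIF4EBP1, the translation repressor below mTORC1, had 179 ± 14.8 CPM in MYDGF cells, against 121 ± 3.03 CPM in aristolochic acid cells (log2 fold change 0.57 ± 0.076 (SE), adjusted p = 0.00147), and the kinase RPS6KB2 also rose (0.58 ± 0.081 (SE), adjusted p = 0.00170). MYC, an activator of ribosome production, had 32.5 ± 28.1 CPM in aristolochic acid cells, against 7.07 ± 0.788 CPM in untreated cells, a wide spread, and its call (log2 fold change 2.19 ± 0.74 (SE), adjusted p = 0.0289) was lost without aristolochic acid library 6 or any 1 untreated library. Of 15 genes of ribosome quality control and ribosome turnover 8 rose (53.3%, background 29.7%) and 2 fell (13.3%, background 29.3%) with aristolochic acid (median log2 fold change 0.36). With MYDGF 2 rose (13.3%) and 4 fell (26.7%), against a background of 14.7% each (median -0.034). ZNF598, the ubiquitin ligase of collided ribosomes, had 103 ± 9.60 CPM in aristolochic acid cells, against 58.8 ± 6.21 CPM in untreated cells (log2 fold change 0.81 ± 0.11 (SE), adjusted p = 2.59e-04). NUFIP1, a receptor for ribosome turnover, had 26.6 ± 3.51 CPM in aristolochic acid cells, against 13.7 ± 0.682 CPM in untreated cells (log2 fold change 0.96 ± 0.11 (SE), adjusted p = 1.01e-04). GCN1, a sensor of collided ribosomes, had 408 ± 9.63 CPM in MYDGF cells, against 586 ± 96.8 CPM in aristolochic acid cells (log2 fold change -0.53 ± 0.1 (SE), adjusted p = 0.00624).

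**Figure D4:**
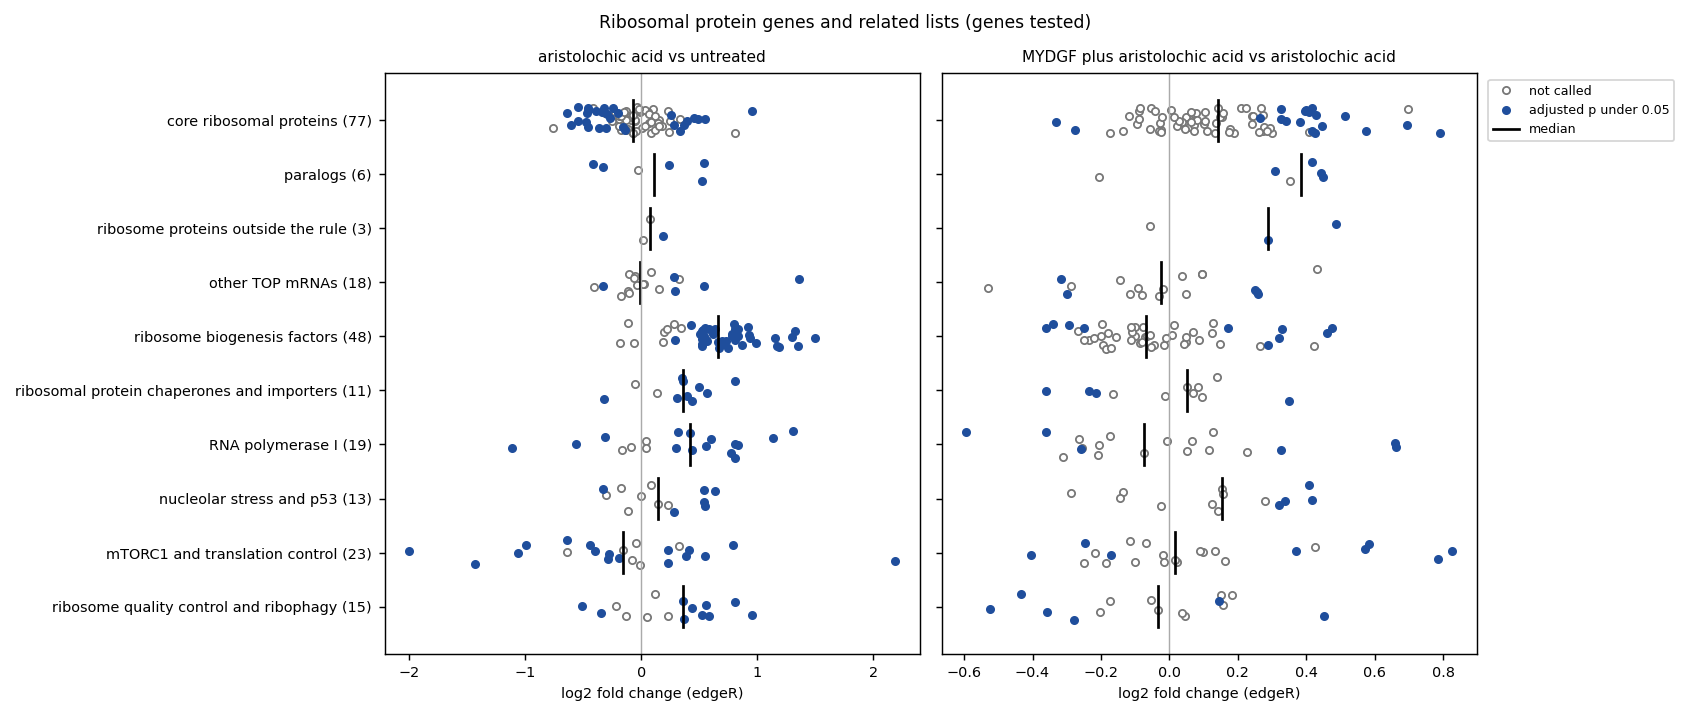
Log2 fold change of each tested gene by list, with the number tested in brackets: aristolochic acid against untreated cells left and MYDGF plus aristolochic acid against aristolochic acid cells right, on different scales. Filled points have an adjusted p under 0.05 and bars are medians: the biogenesis factors centre on 0.67 at left while the core ribosomal proteins centre on -0.074, and at right the core proteins centre on 0.14.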

How the data were processed

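RNA of 9 libraries was sequenced from 1.3 µg of total RNA each. Per the file headers, raw gene counts are deposited as whole numbers. Beside them stand FPKM values that the authors made from the counts, the library total and a single length per gene (within 0.1% for all 37792 genes above 0). HISAT2, SAMtools 1.3.1, CASAVA 1.8 and edgeR stand in the submitters' processing notes, with mm10 as build, although the table lists human Ensembl genes, whose positions are read here as GRCh38. Counting tool, strand setting and treatment of multiply matching reads: not given in the sources used here, so reads of overlapping genes, antisense genes and near-identical copies may be split or merged.

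Counts were tested with edgeR 4.0.16 in R 4.3.3: TMM factors, filterByExpr (minimum count 10, minimum total 15), a single 3-group quasi-likelihood fit to 9 libraries with 6 residual degrees of freedom, and Benjamini-Hochberg adjustment over 18267 genes. Every adjusted p in the text is from this fit unless a ratio test or another setting is named. CPM are counts per 1e+06 of the library size after TMM adjustment. The fit was checked on simulated counts. Shares and paralog ratios were compared with two-sided exact permutation tests over libraries. Alternatives were other size factors, filters and settings, DESeq2 1.42.0, a replicate block and the omission of each library.

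Members, lists and tests were chosen with earlier results of these data known. Named with values are up to 8 called members with the largest change in each direction of both comparisons of the study, the paralogs and partners, RPL5, RPL11, RPS6, RPS3, RPSA, the stalk proteins, RPS19, RPL10, the highest and lowest members by FPKM, and up to 4 called genes per list. RPL37, RPL23, RPS14, RPL7A and RPS9 were named after their values were seen. Some genes that this rule covers are not reported here.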

Additional observations from a re-analysis of the deposited data

How the results depend on the processing

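Counts were lowest, and counting error thus largest, for RPL10L, RPL3L, RPS9 and RPS25 (59 to 117 counts per library), and 3 libraries per group limit every comparison. The lowest and highest counts of called members with 1 library left out were 11 and 14 (higher) and 11 and 22 (lower) for aristolochic acid against untreated cells, 14 and 29 (higher) and 1 and 3 (lower) for MYDGF against aristolochic acid cells, and 19 and 30 (higher) and 2 and 8 (lower) for MYDGF against untreated cells. A replicate block with the label numbers as pairing gave 5 higher and 5 lower, 0 and 0, and 15 higher members in these comparisons, and only 14 genes of the whole table were called between MYDGF and aristolochic acid cells. Libraries with the same number did not deviate together (correlations of -0.17 to 0.024). With few such pairs and 3 libraries per group, this cannot exclude that the numbers pair them. The number lower in MYDGF against aristolochic acid cells was 4 with DESeq2 and 1 with pseudogenes added. For MYDGF against untreated cells it was 8 with TMM factors computed without ribosomal protein and mitochondrial genes, 2 without a filter on low counts and 8 with only 6 libraries fitted. The share of counts in MYDGF against untreated cells differed by 0.082 (log2) without mitochondrial counts in the total. With the pseudogenes of the partner added, log2 differences of paralog ratios were 0.46 (aristolochic acid against untreated) and -0.40 (MYDGF against aristolochic acid) for RPL7L1, 0.998 (MYDGF against untreated) for RPL22L1, -0.20 (aristolochic acid against untreated), 0.0077 (MYDGF against aristolochic acid) and -0.19 (MYDGF against untreated) for RPL36AL, and 0.25 (aristolochic acid against untreated) for RPL39L. With pseudogenes added, the sign turned for RPL21 in aristolochic acid against untreated cells, called at 0.37 and not called at -0.033, and for RPL9 in MYDGF against aristolochic acid cells, not called at -0.030 and called at 0.30. The cause of the other shifts was not tested. Of 157 called results for named genes, 68 kept their call under every alternative.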

Other observations

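Genes that lie just past the 3′ end of a ribosomal protein gene on the same strand, and that were nearly silent in untreated cells (a mean under 1 CPM), were listed within 10 kb. There were 9, chosen after values were seen, and 7 are given. FAM83E lies 0.5 kb past RPL18 and had 13.9, 6.79 and 10.3 CPM in MYDGF cells, 27.1, 44.2 and 39.2 CPM in aristolochic acid cells and 0.396, 0.252 and 0.227 CPM in untreated cells. CHD5, 4.9 kb past RPL22, had 29.1, 13.2 and 20.6 CPM in MYDGF cells, 58.1, 138 and 101 CPM in aristolochic acid cells and 0.872, 1.17 and 0.908 CPM in untreated cells. For both genes every aristolochic acid library was above every MYDGF library. Low untreated levels were the rule of choice, so no test against untreated cells is given for these neighbours. RPL18 and RPL22 themselves did not pass the test in aristolochic acid against untreated cells. The B cell gene CD79A, 4.2 kb past RPS19, had 1.685, 1.561 and 1.413 CPM in MYDGF cells, 3.401, 7.418 and 6.163 CPM in aristolochic acid cells and 0.238, 0.252 and 0.227 CPM in untreated cells. RPL3L itself is such a neighbour, 4.4 kb past RPS2, with 6 counts in MYDGF cells, 96 in aristolochic acid cells and 0 in untreated cells. C17orf98 past RPL23, SURF2 past RPL7A and B3GALT4 past RPS18 had 0, 8 and 0 counts in MYDGF cells, 0, 5 and 1 in aristolochic acid cells and 0, 13 and 1 in untreated cells.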
